A study of Caenorhabditis elegans with 12 samples.

Results

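The effect of removing ADR-2 on mRNA levels was examined in Caenorhabditis elegans fed sqd-1 RNAi, in 6 of the 12 libraries of the series. The comparison set 3 libraries of adr-2(-) animals (strain BB20, allele adr-2(ok735)) against 3 libraries of wild-type animals (strain N2), over all genes of the table that holds these 6 libraries. Both groups were whole worms at the young adult stage that had been fed, from hatching, bacteria carrying a vector against sqd-1, so both share the sqd-1 knockdown. The other 6 libraries, adr-2(-) and wild type on an empty vector (control RNAi), are used below only to place these values. The series is about RNA-binding proteins that affect fertility and about how ADR-2 and SQD-1 relate in that respect. The labels give 2 growth times for the same animals, 60 h and 72 h. The adr-2(-) group is 1 strain with 1 allele, and the labels do not say whether replicates came from separate cultures, so p-values measure only the spread between these libraries, which may be technical.

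ADR-2 is an adenosine deaminase acting on RNA (ADAR): it converts adenosine to inosine within double-stranded RNA, and it is the catalytically active ADAR of this nematode. SQD-1 is an RNA-binding protein of the hnRNP family, named for its relative Squid in Drosophila. In the hermaphrodite gonad, germ cells divide under Notch signalling at the distal end, enter meiosis, become sperm in larvae and then switch to oocytes in adults. Growing oocytes take up yolk, store maternal mRNA under translational repressors and prepare the eggshell, so oocyte RNA makes up much of the RNA of a young adult. In whole worms, fewer cells of a type and less RNA per cell cannot be told apart.

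The values are normalized reads, that is, reads assigned to a gene after division by the library's size factor. Total reads were between 29042770 and 32884051 per library, and 12855291 to 19224268 of them lay outside ribosomal RNA genes, and 1 read was worth 0.820 to 1.13 normalized reads. The 3 adr-2(-) libraries were less alike than the 3 wild-type libraries. Over genes, the SD of log2 values had a median of 0.51 in adr-2(-) and 0.22 in wild type. A chi-square of reads between replicates came to 222 to 339 per degree of freedom in adr-2(-) and 28.1 to 61.6 in wild type. The chi-square took in ribosomal RNA reads, whose share differed between libraries, and the part of ribosomal RNA in it was not separated. Of the variance over the 6 libraries, 49.5% lay on a principal component that set adr-2(-) replicate 2 apart and 39.9% on one that set adr-2(-) replicate 3 apart.

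In adr-2(-) replicate 2 the deviation ran with gene length. Relative to the mean of the other 2 adr-2(-) libraries, genes with up to 500 exon bases had a median log2 difference of 0.61 there and genes with over 4000 exon bases had -0.86, while the wild-type libraries stayed between -0.11 and 0.15 in every length class. The share of reads outside ribosomal RNA that came from the mitochondrial genome was 2.12%, 4.95% and 1.81% in adr-2(-) replicates 1 to 3 and 3.16%, 2.81% and 3.48% in wild type. The ribosomal RNA share was 54.1%, 36.6% and 34.7% in adr-2(-) replicates 1 to 3, against 57.8%, 49.1% and 50.5% in wild type. In adr-2(-) replicate 3 many cuticle collagen genes were near 0. Leaving out 1 library makes non-overlap easier to reach. The share of all tested genes that were higher without overlap was 23.7%, 22.1% and 16.1% without adr-2(-) replicate 1, 2 or 3, and the share lower without overlap was 21.7%, 17.8% and 12.7%.

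**Figure D1:**
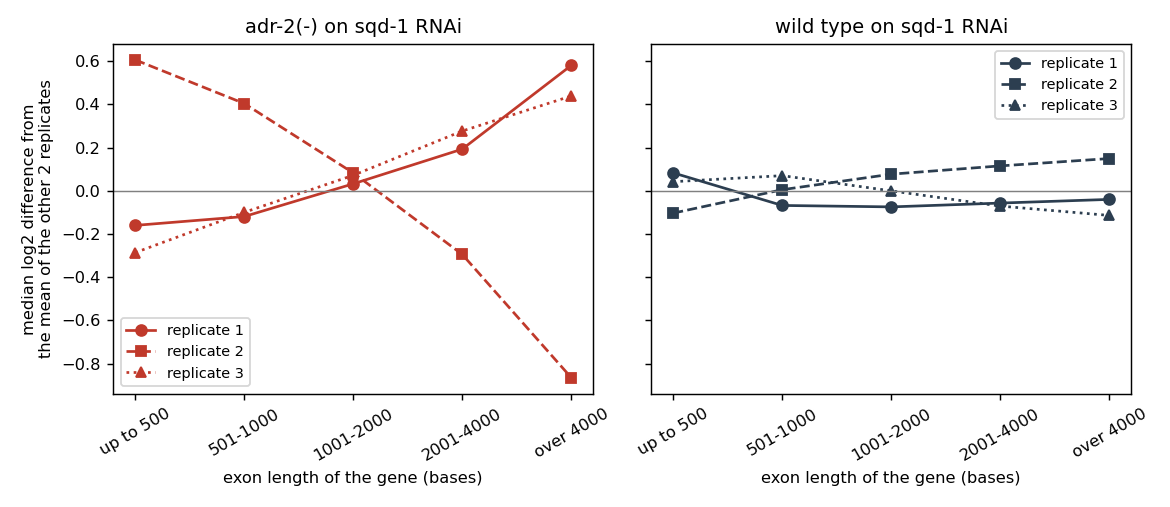
Median log2 difference of each library from the mean of the other 2 libraries of its group (vertical axis), by exon length class in bases (horizontal axis), for adr-2(-) and wild type on sqd-1 RNAi. The line of adr-2(-) replicate 2 runs from 0.61 for genes up to 500 bases to -0.86 for genes over 4000 bases, while the wild-type lines stay near 0.

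The genotype labels were checked on adr-2 itself (WBGene00000080, chromosome III, 7231039 to 7232882, - strand, WBcel235, protein coding). The adr-2(-) libraries held 0, 4.5 and 0 normalized reads, which are 0, 4 and 0 reads, against 371, 512 and 381 normalized reads in wild type. The log2 fold change, which depends on the pseudocount of 1 for a gene this low, was -7.89 ± 0.69 (SE, limma, adjusted p 0.157). The authors' deposited table gives -8.29 ± 0.83 (adjusted p 1.61e-19) for the same libraries. The level of adr-2 fitted the genotype label in all 6 libraries. The knockdown target sqd-1 (WBGene00022235, chromosome IV, 6324174 to 6326422, + strand, protein coding) had 2030, 1231 and 1361 normalized reads in adr-2(-) and 1471, 1463 and 1487 in wild type. The genotypes overlapped, with a log2 fold change of 0.03 ± 0.25 (limma adjusted p 0.958). That near-zero value turned negative under TMM scaling (-0.03), under upper-quartile scaling (-0.02) and without adr-2(-) replicate 1 (-0.19). With all 12 libraries on 1 scale, sqd-1 had 1863, 1106 and 1240 reads in adr-2(-) and 1302, 1342 and 1337 in wild type on sqd-1 RNAi. On control RNAi it had 11472, 29363 and 18585 reads in adr-2(-) and 11948, 15266 and 13789 in wild type, so every sqd-1 RNAi library of either genotype was far below every control library.

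The gene of the ADR-2 binding partner, adbp-1, which is needed for ADR-2 to enter the nucleus, had 348, 728 and 665 normalized reads in adr-2(-) and 224, 333 and 300 in wild type. Every adr-2(-) library lay above every wild-type library, by a log2 fold change of 0.97 ± 0.34 (limma, unadjusted p 0.0268, adjusted p 0.389). Of 6 tested genes listed as known editing targets, 1 was higher and 5 were lower in adr-2(-) by mean. The noncoding RNA rncs-1, an inhibitor of Dicer, had 58.6, 286 and 35.5 normalized reads in adr-2(-), against 505, 169 and 388 in wild type. The groups overlapped through replicate 2 of each genotype (log2 fold change -1.91 ± 0.80, limma adjusted p 0.412). The nuclear envelope gene lem-2 had 888, 2417 and 1212 normalized reads in adr-2(-) and 869, 771 and 632 in wild type. The genotypes did not overlap, though adr-2(-) replicate 1 was only just above the highest wild-type library (log2 fold change 0.87 ± 0.39, limma adjusted p 0.424).

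Across the transcriptome, the clearest difference was higher levels of oocyte, eggshell, maternal and cell division genes in adr-2(-), and it was called in the authors' deposited table but not by limma. In limma on log2(value + 1), 0 of 14697 genes passed an adjusted p of 0.05, while 1781 genes (12.1%) were below 0.05 before adjustment. Without any difference 734.85 would be the average count. Many genes moved together in single libraries, which lets such a count vary widely, so it is a description and no test. Of the 1781 genes, 1390 (9.46%) were higher in adr-2(-) and 391 (2.66%) were lower, although only 45.3% of all tested genes were higher by mean. The edgeR quasi-likelihood test on the recovered reads also called 0 genes, with 1811 (12.3%) under an unadjusted p of 0.05. DESeq2 on the same reads called 263 of 14404 genes (1.83%), 252 of them higher in adr-2(-). By adjusted p, 266 genes passed 0.05 in the authors' deposited table, or 1.81% of the genes tested here. Of these, 257 (1.75%) were higher and 9 (0.0612%) lower in adr-2(-) in the authors' deposited table. For comparison, 3623 of all tested genes (24.7%) had no overlap between the genotypes in either direction. DESeq2 here called 260 of the 266 genes of the authors' deposited table, and in all 266 the libraries of the genotypes did not overlap. The count depended on single libraries: DESeq2 called 1453 genes without adr-2(-) replicate 1, 2 without adr-2(-) replicate 3, 4 without wild-type replicate 1 and 4 without wild-type replicate 3.

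**Figure D2:**
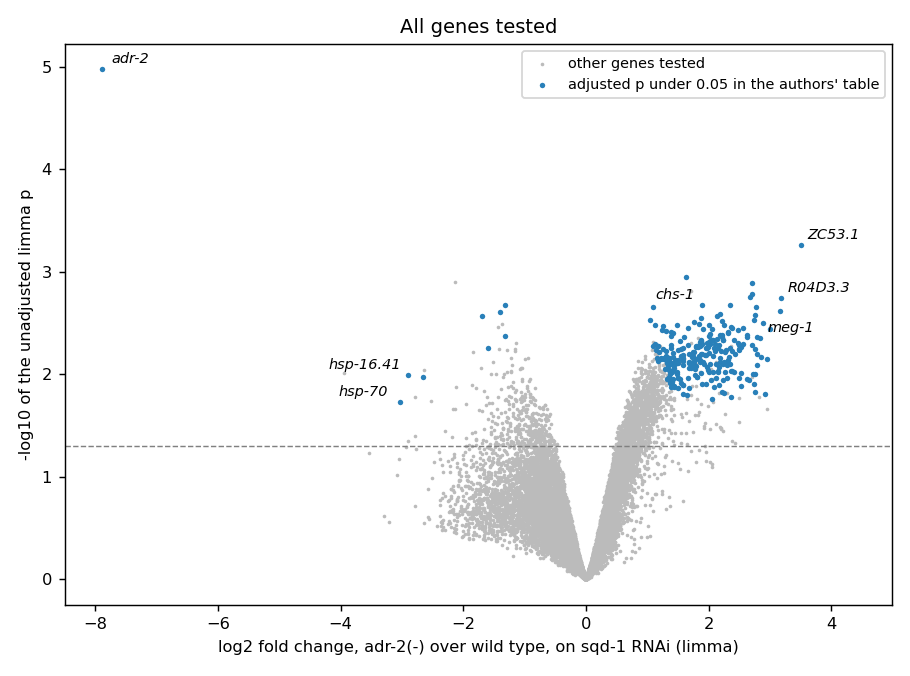
Each point is 1 of the 14697 genes tested, with the limma log2 fold change of adr-2(-) over wild type on sqd-1 RNAi (horizontal axis) and -log10 of the unadjusted limma p (vertical axis); the dashed line marks an unadjusted p of 0.05. The 266 genes with an adjusted p under 0.05 in the authors' deposited table are coloured: 257 lie on the right, between 1.04 and 3.52, and 9 on the left, with adr-2 at -7.89.

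The 257 genes called higher in the authors' deposited table had limma log2 fold changes of 1.04 to 3.52, with a median of 1.88. Within each genotype the libraries kept a common order over these genes. Replicate 1 was the lowest adr-2(-) library for 251 of the 257, replicate 2 was the highest for 187 and replicate 3 for 70. In wild type, replicate 3 was the lowest library for 227 of them and replicate 2 the highest for 237. Their median log2 distance from the wild-type mean was 0.96, 2.38 and 2.22 in adr-2(-) replicates 1 to 3, against 0.05, 0.51 and -0.50 in wild type. The lowest adr-2(-) library, replicate 1, also had a ribosomal RNA share closest to wild type, and its part in the order was not tested. Of the 257 genes in the authors' deposited table, 254 are annotated as protein coding. Chromosome X held 37 of them (14.4%), close to its 13.8% of all genes tested, and chromosome II held 59 (23%, against 17.3% of all genes tested). Their median exon length was 1418 bases, against 1363 bases over all genes tested.

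By fold change, the leading genes called higher in the authors' deposited table were partly without a symbol. R04D3.3 had 809, 1063 and 1369 normalized reads in adr-2(-), against 148, 253 and 40.2 in wild type. This was the largest rise among the called genes without overlap whose higher group averaged at least 100 normalized reads (log2 fold change 3.19 ± 0.65, limma, unadjusted p 0.0018, adjusted p 0.388). F26G5.1 followed with 163, 222 and 233 normalized reads in adr-2(-) and 30.2, 49 and 6.56 in wild type (3.17 ± 0.68, limma adjusted p 0.388). In both, every adr-2(-) library was well above every wild-type library. The others named by fold change were F12E12.1, K04C1.5, W06D11.3, cav-1, meg-1, try-1, cdc-25.3 and the ONECUT-type homeobox gene ceh-49, with log2 fold changes between 2.79 and 3.01. Among genes with a symbol the list went on with lsy-27, ceh-83, clec-87, pzf-1 and oma-2, between 2.50 and 2.75. F12E12.1, cdc-25.3, lsy-27 and clec-87 each overlap a gene on the opposite strand, and whether the authors' counting used strand is not given in the sources used here. ZC53.1, chosen after its values were seen, had the largest rise of all at a lower level, with 42.9, 89 and 73.5 normalized reads in adr-2(-) and 6.72, 8.64 and 1.64 in wild type.

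Genes of yolk uptake and the eggshell were higher in adr-2(-) throughout: 15 of 15 were higher by mean, with a median log2 fold change of 2.02 against -0.07 over all genes tested. In 13 of the 15 every adr-2(-) library lay above every wild-type library, a pattern that 14.5% of all tested genes showed. The same 13 were called higher in the authors' deposited table, where 1.75% of all tested genes were. The yolk receptor gene rme-2 had 4610, 13026 and 10470 normalized reads in adr-2(-) and 2219, 3472 and 1381 in wild type, that is 9369 ± 4315 against 2357 ± 1052 (SD, n = 3). Its log2 fold change was 1.96 ± 0.49 (limma adjusted p 0.388), and the lowest adr-2(-) library was above the highest wild-type one.

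The eggshell chondroitin proteoglycan genes cpg-1 and cpg-2 stood higher still. cpg-1 had 9197, 31105 and 23074 normalized reads in adr-2(-), against 5009, 5855 and 1983 in wild type (log2 fold change 2.28 ± 0.58, limma adjusted p 0.388). cpg-2 had 6699, 26685 and 18656 normalized reads in adr-2(-) and 2990, 4970 and 1934 in wild type, a log2 fold change of 2.29 ± 0.58. The chitin synthase gene chs-1, which makes the chitin layer, showed one of the smaller spreads in the list. It had 1939, 3794 and 4769 normalized reads in adr-2(-) and 926, 1150 and 651 in wild type (1.89 ± 0.39, limma unadjusted p 0.00211, adjusted p 0.388). The eggshell gene cbd-1 and egg-1, needed on the oocyte for fertilization, had log2 fold changes of 2.09 ± 0.53 and 2.22 ± 0.53, with no overlap between genotypes. The exceptions were perm-2 (0.33) and perm-4 (0.17), which encode eggshell permeability barrier proteins and whose genotypes overlapped. The list median was 1.13, 2.57 and 2.37 log2 units above the wild-type mean in adr-2(-) replicates 1 to 3. Leaving out any library kept it between 1.69 and 2.51, with 13 genes without overlap each time.

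**Figure D3:**
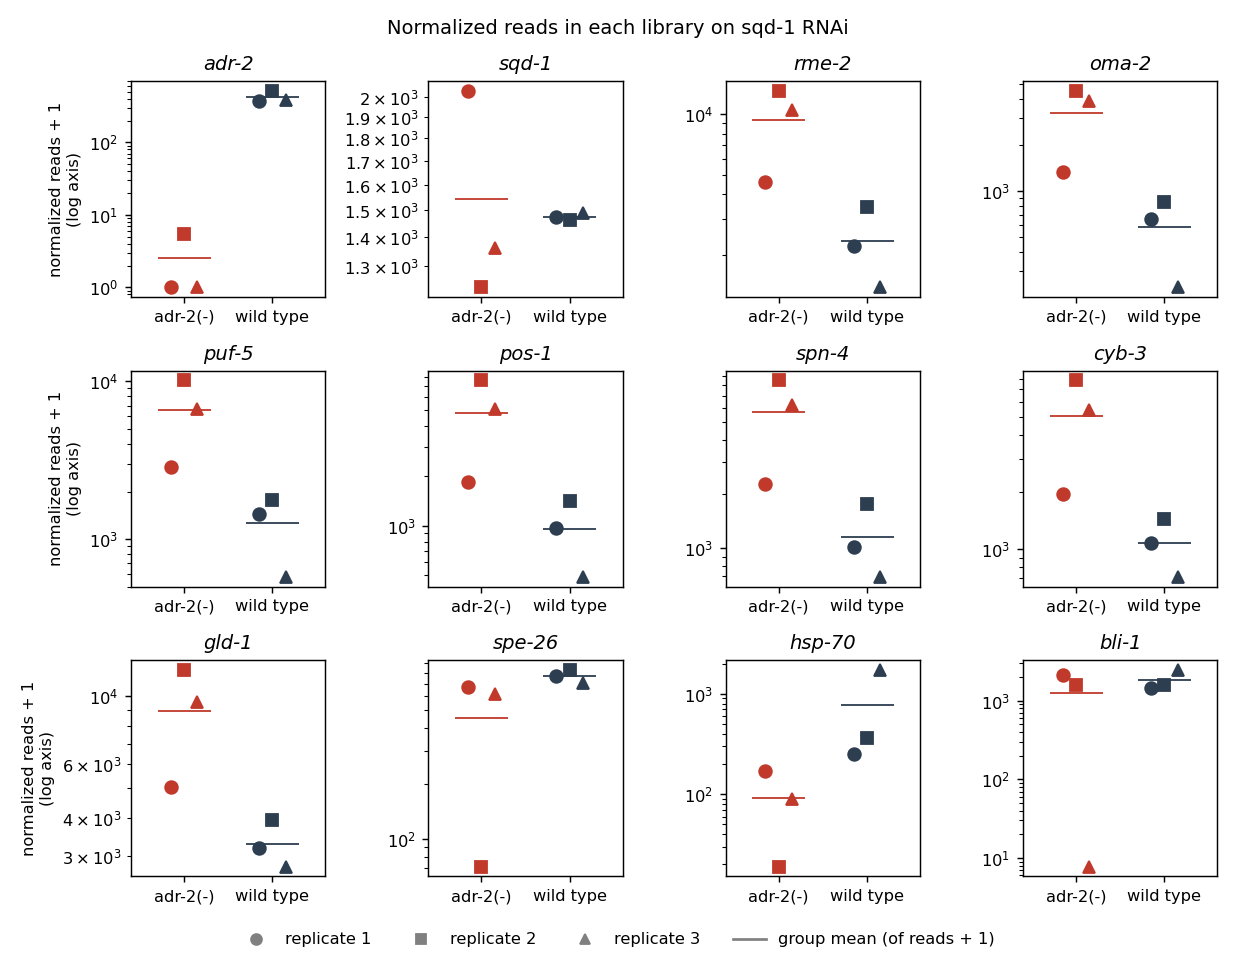
Normalized reads plus 1 on a log axis for 12 genes in the 3 adr-2(-) libraries (left in each panel) and the 3 wild-type libraries (right) on sqd-1 RNAi, with the mean of each group as a line. The oocyte genes rme-2, oma-2, puf-5, pos-1 and spn-4 have every adr-2(-) library above every wild-type library, while spe-26 is low in adr-2(-) replicate 2 and bli-1 is near 0 in adr-2(-) replicate 3.

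RNA regulators of growing oocytes showed the same direction, with 16 of 16 higher by mean and a median log2 fold change of 1.46. In this list 14 were without overlap and 10 were called higher in the authors' deposited table. The matching shares of all tested genes were 14.5% and 1.75%. The zinc finger gene oma-2, which acts with oma-1 in oocyte maturation, had 1328, 4518 and 3889 normalized reads in adr-2(-) and 656, 841 and 233 in wild type. Its log2 fold change was 2.50 ± 0.63 and that of oma-1 was 1.51 ± 0.40 (limma adjusted p 0.388 each). The Pumilio-family repressor gene puf-5 had 2864, 10098 and 6677 normalized reads in adr-2(-), against 1443, 1776 and 574 in wild type. The other Pumilio genes of the list, puf-3, puf-6, puf-7 and puf-11, lay between 1.72 and 2.08 on the log2 scale. lin-41, which holds oocytes back from premature cell division and maturation, had 2255, 4997 and 5960 normalized reads in adr-2(-) and 1253, 1722 and 799 in wild type. General translation regulators of the list moved least: ifet-1 (0.37) and larp-1 (0.06) overlapped between genotypes. The list median stayed between 1.18 and 1.87 when any library was left out. puf-6 with puf-7, and egg-1 with egg-2, are close copies whose reads may be shared between them, so their separate values are uncertain.

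Maternal genes of embryonic polarity and cell fate followed, with 22 of 23 higher by mean and a median of 1.5. Among them 20 were without overlap and 13 were called higher in the authors' deposited table, against 14.5% and 1.75% of all tested genes. The largest fold changes in the list were those of meg-1 (2.85) and nos-2 (2.49). The germ plasm gene meg-1 had 968, 1913 and 1833 normalized reads in adr-2(-) and 305, 426 and 68.9 in wild type (SE of the log2 fold change 0.69, limma adjusted p 0.388). nos-2, a Nanos-family gene of the embryonic germ line, had 279, 969 and 611 normalized reads in adr-2(-) and 133, 153 and 44.3 in wild type, and overlaps him-14 on the opposite strand. In both genes every adr-2(-) library was above every wild-type library. The zinc finger gene pos-1, needed for posterior fates, had 1828, 7575 and 5100 normalized reads in adr-2(-), against 964, 1414 and 487 in wild type (2.24 ± 0.61). spn-4, which binds maternal mRNA, had 2277, 8507 and 6199 normalized reads in adr-2(-) and 1014, 1763 and 694 in wild type. pie-1, mex-1, mex-3, mex-5, mex-6 and zif-1 lay between 1.5 and 2.01 with no overlap. The PAR polarity genes sat lower in the list: par-2, par-3 and par-6 lay between 0.71 and 0.76, and par-1, a polarity kinase, at -0.19 with overlapping genotypes. Without any 1 library the list median was 1.18 to 1.93. Leaving out adr-2(-) replicate 2 put all 23 genes higher by mean, par-1 included.

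Cell cycle and DNA replication genes were higher by mean in 23 of 24 cases, with a median of 1.25. There 20 were without overlap and 10 were called higher in the authors' deposited table, against 14.5% and 1.75% of all tested genes. The B-type cyclin gene cyb-3 had 1961, 7808 and 5434 normalized reads in adr-2(-) and 1079, 1446 and 709 in wild type, that is 5068 ± 2940 against 1078 ± 369 (SD, n = 3). Its log2 fold change was 2.08 ± 0.54 (limma adjusted p 0.388), while that of cyb-1 was 0.37 ± 0.22. The sliding clamp gene pcn-1 had 1557, 3952 and 2814 normalized reads in adr-2(-), against 859, 1083 and 675 in wild type (1.59 ± 0.38). All 6 genes of the MCM replicative helicase, mcm-2 to mcm-7, had adr-2(-) libraries above all wild-type libraries, with log2 fold changes of 1.16 to 1.55. Only cdk-2 was lower by mean (-0.13), with 345, 155 and 525 normalized reads in adr-2(-) and 318, 349 and 334 in wild type. The list median was 1.02 to 1.61 with any library left out. Without adr-2(-) replicate 2 all 24 genes were higher by mean, cdk-2 included.

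Genes of germline proliferation and meiosis differed less. Of 38 tested, 33 were higher by mean with a median of 0.61. Of the 38, 16 were higher without overlap, a pattern that 14.5% of all tested genes showed. Only 2 of the 38 were called higher in the authors' deposited table, where 1.75% of all tested genes were. Those 2 were sygl-1, a target of Notch signalling in germline stem cells, and gld-1, a translational repressor that drives meiotic entry and oocyte fate. sygl-1 had 567, 1895 and 1235 normalized reads in adr-2(-) and 336, 439 and 212 in wild type (1.80 ± 0.49, limma adjusted p 0.388). gld-1 had 5061, 12173 and 9565 normalized reads in adr-2(-), against 3192, 3935 and 2776 in wild type (1.36 ± 0.36). The Notch receptor gene glp-1 had 1931, 2465 and 3685 normalized reads in adr-2(-) and 1085, 1419 and 924 in wild type, a log2 fold change of 1.21 ± 0.31 without overlap. The authors' deposited table puts glp-1 just outside its threshold, at an adjusted p of 0.0501. With all 6 libraries the synaptonemal complex genes lay on both sides of 0: syp-1 was at -0.36, syp-2 at 0.32, syp-3 at 0.25 and syp-4 at -0.46, all overlapping. Without adr-2(-) replicate 1 the count without overlap was 25 of 38, while over all genes the share higher without overlap was then 23.7% in place of 14.5%. syp-4 was low in adr-2(-) replicate 2 only, with 258 normalized reads there and 1511 and 2218 in the other adr-2(-) libraries. Without adr-2(-) replicate 2 all 38 genes were higher by mean, syp-1 and syp-4 included, with a median of 0.57. Then 23 were higher without overlap, where 22.1% of all genes were.

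Germline sex determination genes had a median of 0.58, with 19 of 22 higher by mean, 8 without overlap and 1, gld-1, called higher in the authors' deposited table. Over all tested genes, 14.5% were higher without overlap and 1.75% were called higher. fem-3, which promotes sperm fate, had 419, 532 and 856 normalized reads in adr-2(-) and 174, 323 and 212 in wild type (1.33 ± 0.36, limma adjusted p 0.388). puf-8, which acts in the switch from sperm to oocyte, had 655, 1618 and 1282 normalized reads in adr-2(-), against 472, 539 and 426 in wild type (1.21 ± 0.36). By contrast, the terminal sperm-fate gene fog-3 had 537, 517 and 510 normalized reads in adr-2(-) and 389, 575 and 608 in wild type, and the terminal regulator tra-1 was at -0.17, both overlapping. Without adr-2(-) replicate 1, 15 of the 22 genes were higher without overlap, where 23.7% of all genes were. Without wild-type replicate 2 the count was 13 and the share of all genes 19.7%. Of P granule and germline Argonaute genes, 14 of 17 were higher by mean (median 0.54, 8 without overlap), and meg-3 and meg-4 were called higher in the authors' deposited table. meg-3, a scaffold of embryonic germ granules, had 401, 1083 and 1092 normalized reads in adr-2(-) and 166, 279 and 64 in wild type. The adult P granule helicase gene glh-1 was at -0.01 and the Argonaute gene csr-1 at 0.18, with overlapping genotypes. Without adr-2(-) replicate 2 all 17 P granule and Argonaute genes were higher by mean, with a median of 0.59. Of these 17, 12 were then higher without overlap, where 22.1% of all genes were.

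Because ADARs and the RNAi machinery both act on double-stranded RNA, 35 genes of RNA interference were examined. Of these, 24 were higher by mean with a median of 0.10, and 13 had no overlap, against 14.5% of all tested genes. One gene class call stood in the authors' deposited table, where ergo-1 was called higher and 1.75% of all tested genes were. ergo-1, the Argonaute of endogenous 26G small RNAs, had 1472, 3145 and 3218 normalized reads in adr-2(-) and 1023, 1176 and 754 in wild type (1.35 ± 0.37, limma adjusted p 0.388). It overlaps pei-2 on the opposite strand. rde-4, whose product hands long double-stranded RNA to Dicer, had 1060, 2054 and 1856 normalized reads in adr-2(-), against 691, 936 and 698 in wild type (1.05 ± 0.31). The Dicer gene dcr-1 itself had 3443, 144 and 4717 normalized reads in adr-2(-) and 2348, 3242 and 2694 in wild type. That low replicate 2 value recurred in rde-1 (121 normalized reads, against 1282 and 1997 in the other adr-2(-) libraries) and in rrf-2. Without adr-2(-) replicate 2 the list median was 0.53 in place of 0.10, and 22 of the 35 genes were higher without overlap in place of 13, where the share of all genes was 22.1% in place of 14.5%.

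Of 38 tested sperm function genes 34 were lower by mean in adr-2(-), with a median of -0.60, and 12 lay below wild type without overlap, a pattern that 10.2% of all tested genes showed. None of them was called in the authors' deposited table, where only 0.0612% of all tested genes were called lower. Of the 38, 4 had an unadjusted limma p under 0.05 and were lower, where 2.66% of all tested genes were. The sperm surface gene spe-9, needed for fertilization, had 175, 50.7 and 131 normalized reads in adr-2(-) and 205, 223 and 216 in wild type (-1.02 ± 0.46, limma adjusted p 0.425). spe-26 had 673, 69.8 and 615 normalized reads in adr-2(-), against 766, 827 and 705 in wild type, so that its fold change of -1.31 ± 0.83 came mainly from replicate 2. The genotypes overlapped in spe-49 (-1.73), spe-11 (-1.37) and snf-10 (-1.24), and adr-2(-) replicate 2 was the lowest library in each. spe-11 had 1613, 69.8 and 1901 normalized reads in adr-2(-) and 1585, 1700 and 1378 in wild type. In snf-10 they were 346, 29.3 and 335 in adr-2(-), against 342, 396 and 343 in wild type. The sperm phosphatase genes gsp-3 (0.04) and gsp-4 (0.03) overlapped between genotypes. The list median was -0.28 without adr-2(-) replicate 2, with 14 genes lower without overlap, where 17.8% of all genes were. When adr-2(-) replicate 1 was left out, 20 genes were lower without overlap, where 21.7% of all genes were in place of 10.2%.

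The major sperm protein genes, short and near-identical genes whose reads may be shared among copies, were higher by mean in 27 of 28 cases with a median of 0.42. Of these genes 1 had no overlap, against 14.5% of all genes (4 without adr-2(-) replicate 1, where the share of all genes was 23.7%). Their summed level was 66982, 179043 and 74467 normalized reads in adr-2(-) and 89228, 84653 and 57096 in wild type. Only replicate 2 stood high, and without it the median was -0.06. The 6 vitellogenin genes, which encode the yolk proteins made in the intestine, were higher by mean with a median of 0.65 and overlapped throughout. All 6 were higher without overlap when adr-2(-) replicate 1 was left out, and 5 when wild-type replicate 1 was, where the share of all genes was 23.7% and 16.8%. vit-2 had 300463, 492324 and 420681 normalized reads in adr-2(-), against 319088, 295551 and 170300 in wild type (0.65 ± 0.41, limma adjusted p 0.496).

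Markers of the gonadal sheath, the somatic cells around the oocytes, were centred on 0, with 4 of 8 higher by mean. lim-7 had 137, 107 and 106 normalized reads in adr-2(-) and 132, 108 and 107 in wild type, and ceh-18 was at -0.15 ± 0.21. The innexin gene inx-22, whose product joins oocytes to sheath cells, was called higher in the authors' deposited table, with 549, 1241 and 879 normalized reads in adr-2(-) and 324, 425 and 255 in wild type. Somatic tissue markers were detected in every library, as whole worms require. Of the 14 muscle markers 9 were higher by mean (median 0.03), with summed levels of 206350 to 338725 normalized reads in adr-2(-) and 239390 to 259481 in wild type. Of the 11 intestinal markers 8 were higher (median 0.09, summed levels 49112 to 171371 in adr-2(-) and 69675 to 82701 in wild type). Of the 12 neuronal markers 4 were higher (median -0.50, summed levels 4883 to 8652 in adr-2(-) and 5950 to 6591 in wild type). Of the 7 hypodermal markers 2 were higher (median -0.27, summed levels 2613 to 4276 in adr-2(-) and 2842 to 3615 in wild type). None of these 4 lists held a gene called in the authors' deposited table. Over all tested genes 1.75% were called higher there and 0.0612% lower, so the absence of calls from lists this short says little. Without adr-2(-) replicate 2 the medians were -0.16 for muscle, -0.25 for intestine, -0.25 for neurons and -0.13 for hypodermis. They were 0.21 for muscle, 0.39 for intestine, -0.28 for neurons and -0.12 for hypodermis when adr-2(-) replicate 3 was left out.

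**Figure D4:**
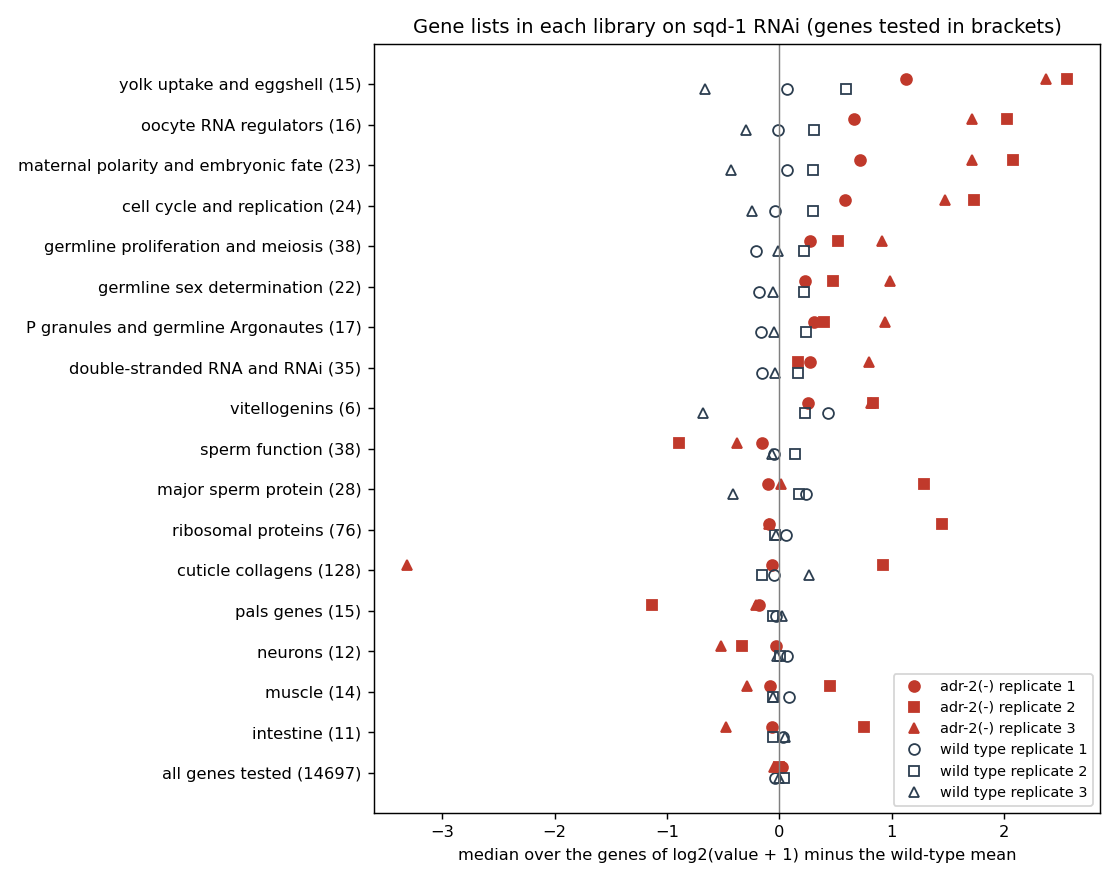
Median over the tested genes of each list of log2(value + 1) minus the wild-type mean on sqd-1 RNAi (horizontal axis), 1 point per library, with filled red points for adr-2(-) and open points for wild type. The 4 lists at the top have all 3 adr-2(-) libraries to the right of all 3 wild-type libraries, whereas ribosomal proteins and major sperm proteins are high in adr-2(-) replicate 2 only and collagens are low in adr-2(-) replicate 3 only.

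A few large gene families differed through 1 library. The 128 tested cuticle collagen genes had a median of -0.93, but the library medians were -0.07, 0.92 and -3.31 in adr-2(-) replicates 1 to 3. The adult strut collagen gene bli-1 had 2150, 1610 and 6.76 normalized reads in adr-2(-) and 1471, 1578 and 2458 in wild type, and bli-2 had 975, 1008 and 0 in adr-2(-) and 706, 862 and 1516 in wild type. Without adr-2(-) replicate 3 the collagen median was 0.41. The 76 cytoplasmic ribosomal protein genes had a median of 0.42, with library medians of -0.09, 1.44 and -0.09 in adr-2(-), and the median was -0.09 without replicate 2. Among 28 histone genes, many of them near-identical, the median was 0.30 with 9 higher without overlap, where 14.5% of all tested genes were. The 15 tested pals genes, several of which control the intracellular pathogen response, had a median of -0.37 with 7 lower without overlap, where 10.2% of all tested genes were. For the pals genes replicate 2 was lowest (library medians -0.18, -1.13 and -0.21 in adr-2(-)). Detoxification enzymes had a median of -0.14. The 106 tested neuropeptide genes had a median of -0.02, with library medians of -0.17, 0.82 and -0.70 in adr-2(-). Their median was -0.41 without adr-2(-) replicate 2, with 44 lower without overlap where 17.8% of all genes were, and 0.30 without adr-2(-) replicate 3. Of 100 C-type lectin genes, with a median of -0.08 (-0.24 without adr-2(-) replicate 2 and 0.17 without adr-2(-) replicate 3), clec-87, clec-88 and clec-91 were called higher in the authors' deposited table. Over all tested genes the share called higher was 1.75%. clec-87 had 2449, 10428 and 6997 normalized reads in adr-2(-) and 1121, 1610 and 504 in wild type.

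Apart from adr-2, the 8 genes called lower in the authors' deposited table included heat shock genes and several unnamed genes. The inducible chaperone gene hsp-70 had 168, 18 and 89.6 normalized reads in adr-2(-), against 251, 363 and 1721 in wild type (-3.03 ± 0.99, limma adjusted p 0.388). The small heat shock gene hsp-16.41 had 78.5, 42.8 and 30.4 normalized reads in adr-2(-) and 165, 200 and 1359 in wild type (-2.90 ± 0.83). In both genes the genotypes did not overlap, and wild-type replicate 3 was far above the other wild-type libraries. hsp-16.2 had 53.4, 23.6 and 25.4 normalized reads in adr-2(-), against 94.1, 125 and 985 in wild type, with no adjusted p in the authors' deposited table. The hsp-16 genes are close copies, and hsp-70 overlaps uggt-2 on the opposite strand. Over the 18 tested heat shock genes the median was -0.12 with 13 lower by mean. Of the 18, 4 were lower without overlap, where 10.2% of all genes were (9 without adr-2(-) replicate 2, where 17.8% of all genes were). The unnamed gene F12A10.1 had 67, 64.2 and 72.7 normalized reads in adr-2(-) and 149, 131 and 253 in wild type (-1.31 ± 0.31, limma adjusted p 0.388), and wild-type replicate 3 was again the highest library.

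The control RNAi libraries of the same genotypes, which share no library with the 6 above, were used to ask whether the difference was there without sqd-1 knockdown. They are not an independent set: same-numbered libraries of a genotype deviated from their group means together across the RNAi conditions, with correlations over genes of 0.64, 0.82 and 0.69 in adr-2(-) and 0.25, 0.26 and 0.27 in wild type. Ribosomal proteins, for example, stood high in adr-2(-) replicate 2 on sqd-1 RNAi (1.12) and on control RNAi (1.29), and collagens low in adr-2(-) replicate 3 (-2.18 and -2.41), as log2 medians relative to wild type on control RNAi. Of the 257 genes called higher on sqd-1 RNAi in the authors' deposited table, 255 were also higher by mean in adr-2(-) on control RNAi. The differences were smaller there, with a median log2 fold change of 0.55, and 46 of the 257 had no overlap, where 5.07% of all tested genes were higher without overlap. The yolk uptake and eggshell list had a control RNAi median of 0.57, oocyte RNA regulators 0.48, maternal genes 0.46 and cell cycle genes 0.49. The sperm function median was -1.11 on control RNAi over the 36 genes tested there, further from 0 than on sqd-1 RNAi. Of these, 19 were lower without overlap, where 8.81% of all tested genes were. Replicate 3 was furthest from 0: relative to wild type on control RNAi, the library medians in adr-2(-) on control RNAi were -0.43, -0.59 and -1.68. Some of these genes were low, such as spe-49 with 33.6, 3.23 and 9.94 normalized reads in adr-2(-) on control RNAi. Over all genes on control RNAi, limma called 1 gene, adr-2 (0.00737%), and 1008 genes (7.43%) had an unadjusted p under 0.05. rme-2, for example, had a log2 fold change of 0.65 on control RNAi, where the genotypes overlapped.

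Whether the difference between genotypes depended on the RNAi was tested with an interaction term over all 12 libraries. No gene of 14266 passed in limma (205, or 1.44%, had an unadjusted p under 0.05, and the smallest adjusted p was 0.9998), and edgeR also called 0 (272, or 1.89%, unadjusted). With a replicate block, which joins the libraries of 1 genotype and 1 number, limma called 0 genes as well. The smallest adjusted p was then 0.141, and 1419 genes (9.95%) had an unadjusted p under 0.05. Of the 257 genes called higher in the authors' deposited table, 254 had an unadjusted interaction p under 0.05 with the block and 109 without it. These 257 genes were chosen on the sqd-1 RNAi libraries that also enter the interaction, so the counts are a description. The median interaction was 1.28 on the log2 scale over these 257 genes, 1.43 over the yolk uptake and eggshell list and 0.94 over oocyte RNA regulators. The larger median on sqd-1 RNAi is therefore a description that passed no test of the difference.

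All 12 libraries were also put on 1 scale. Of the 257 genes called higher in the authors' deposited table, 247 had their adr-2(-) sqd-1 RNAi mean below the mean of wild type on control RNAi, and 10 had it above. That these means lie above wild type on sqd-1 RNAi is fixed by how the genes were chosen. In 55 genes every adr-2(-) sqd-1 RNAi library was still below every wild-type control library. Relative to wild type on control RNAi, the yolk uptake and eggshell median was -1.49, 0.04 and -0.24 in adr-2(-) on sqd-1 RNAi, against -2.54, -2.03 and -3.53 in wild type on sqd-1 RNAi. In adr-2(-) on control RNAi it was 0.11, 0.90 and 0.78. Replicate 1 was the lowest adr-2(-) library on either RNAi. The same gene group thus stood near the wild-type control level in 2 of the 3 adr-2(-) libraries on sqd-1 RNAi and well below it in the other.

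The oocyte gene oma-2 had 1219, 4061 and 3546 reads on this scale in adr-2(-) on sqd-1 RNAi and 581, 772 and 209 in wild type on sqd-1 RNAi. On control RNAi it had 4747, 8678 and 7381 in adr-2(-) and 3939, 5241 and 3749 in wild type. For sperm function genes the median was 1.56, 0.39 and 1.37 in adr-2(-) on sqd-1 RNAi and 1.70, 1.89 and 1.58 in wild type on sqd-1 RNAi, so both genotypes stood above wild type on control RNAi. Over the adr-2(-) libraries on sqd-1 RNAi the sperm and the yolk uptake and eggshell medians ran in opposite order. Replicate 1 was highest for sperm genes and lowest for yolk uptake and eggshell genes, and replicate 2 was the reverse. Replicate 3 was near the control level for oocyte genes and near wild type on sqd-1 RNAi for sperm genes. In wild type on sqd-1 RNAi both medians were highest in replicate 2 and lowest in replicate 3. The cause of these orders was not tested.

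**Figure D5:**
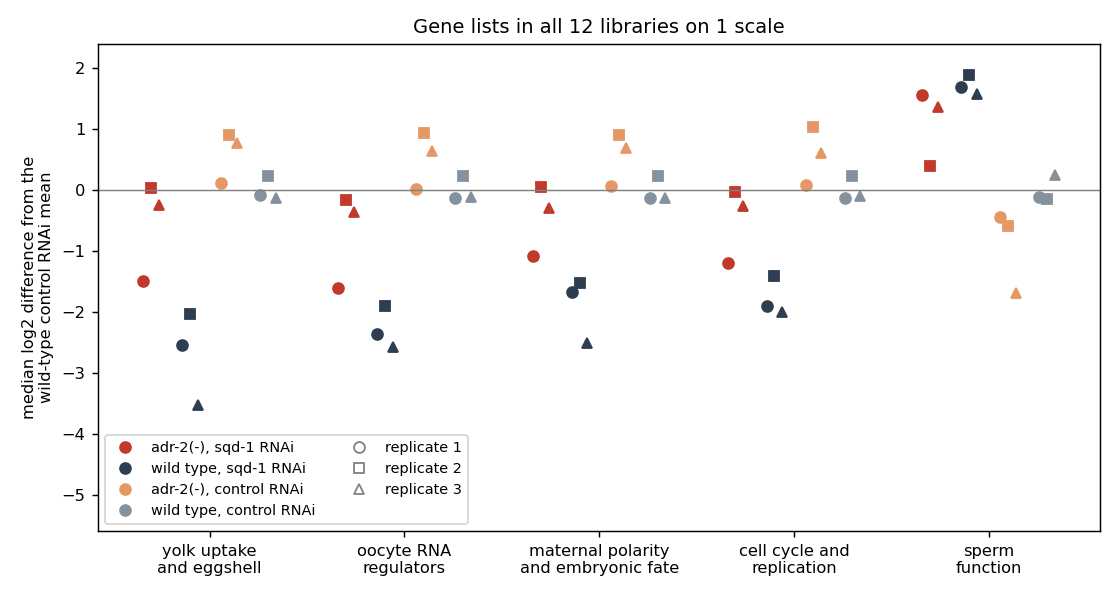
Median log2 difference of 5 gene lists from the wild-type control RNAi mean (vertical axis) in all 12 libraries on 1 scale, coloured by group, with the marker shape giving the replicate. For yolk uptake and eggshell genes, adr-2(-) on sqd-1 RNAi lies at -1.49, 0.04 and -0.24, above wild type on sqd-1 RNAi at -2.54, -2.03 and -3.53.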

How the data were processed

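Libraries were made from poly-A RNA of whole young adults, with a kit that keeps strand, per the labels' protocols. The submitters' processing notes name STAR 2.7.10b and DESeq2. The read counter, its use of strand and the genome build are not given in the sources used here. The authors deposited tables that hold, per the file headers, for each gene a normalized signal in every library, and for the comparison a log2 fold change, its error and a p-value before and after adjustment. This signal is the read count divided by the authors' size factor, computed within each table of 6 libraries.

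From the steps between low values the size factors were undone: 100% of 275772 values came out whole, within 0.001 reads. Genes with a mean of at least 10 over the 6 libraries were tested with limma 3.58.1 (R 4.3.3, eBayes with a trend) on log2(value + 1), which understates the change of low genes, with Benjamini-Hochberg adjustment over all of them and a threshold of 0.05. edgeR 4.0.16 and DESeq2 1.42.0 were run on the recovered reads. The count tests are alternatives because the deposited values are not counts. The scripts were tested on simulated data. An exact permutation test of 3 against 3 libraries cannot go below a p of 0.1, so none is given.

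For the interaction all 12 libraries were put on 1 scale by median-of-ratios factors, and a fit with a replicate block is given beside it. Replicate numbers come from the labels, and all 6 same-numbered pairs across the RNAi conditions of a genotype deviated together, so the numbers were taken to pair those libraries. Gene models are from Ensembl WBcel235, which holds 24602 of the 24619 gene IDs. The rule for naming genes took adr-2, sqd-1 and the largest differences among called genes without overlap whose higher group averages 100 or more. It also took up to 4 members of each list with the largest fold change. Not every gene that the rule picked is described, and msp-79 and msp-63 are among those left out. Other list members named as examples were chosen after their values were seen. The gene lists and the genes were chosen with earlier results of these data known. Near-identical copies and overlapping genes are uncertain. Other settings, and each library left out in turn, are given in the closing section.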

Additional observations from a re-analysis of the deposited data

How the results depend on the processing

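The limma count of 0 genes became 1 gene (adr-2) with a pseudocount of 10, with library quality weights and with all 12 libraries fitted together. It stayed 0 with a pseudocount of 0.1, without a filter, with a minimum mean of 50, under TMM or upper-quartile scaling, without a trend and in edgeR. DESeq2 called 263 genes, and 266 passed in the authors' deposited table. With 1 library left out, limma called 0 to 1 genes and DESeq2 2 to 1453, with 294 without adr-2(-) replicate 2 and 181 without wild-type replicate 2; the cause was not tested.

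The log2 fold change of adr-2 was -5.24 with a pseudocount of 10 (limma adjusted p 0.00262), -8.55 with quality weights (0.000358), -7.78 with all 12 libraries (0.000273) and -8.29 in DESeq2 (1.66e-19) and the authors' deposited table. Leaving out libraries gave -8.71 to -7.48, and limma adjusted p values over all settings ran from 0.000273 to 0.772. The interaction count was 0 under every setting run.

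Replicate numbers were not found to pair the genotypes. Deviations of same-numbered libraries correlated across genes at -0.01, -0.11 and -0.32, and unlike numbers reached 0.32. With the replicate number as a block, limma called 0 genes for the comparison (1398 at an unadjusted p under 0.05), adr-2 kept -7.89 (adjusted p 0.512) and the interaction count was 0.

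Of 117 named genes, 16 changed sign in 21 fits, none of them called by limma; the cause was not tested. sqd-1 gave -0.033 (TMM) and -0.025 (upper quartile), and leaving out libraries gave -0.19 (without adr-2(-) replicate 1) to 0.17. Genes that turned positive without adr-2(-) replicate 2 ranged, with libraries left out, over -1.87 to 0.17 (rrf-2), -2.2 to 0.18 (spe-11), -2.17 to 0.016 (itr-1), -0.67 to 0.081 (plc-3), -1.15 to 0.38 (unc-22) and -0.94 to 0.41 (unc-89), and quality weights gave 0.11 for unc-22 and 0.20 for unc-89. Genes that turned positive without adr-2(-) replicate 3 ranged over -4.96 to 0.027 (bli-2), -3.999 to 0.058 (bli-1), -3.97 to 0.12 (lon-3), -4.02 to 0.39 (col-63), -3.31 to 0.28 (rol-6), -0.54 to 0.029 (myo-1) and -0.71 to 0.0023 (myo-2). C35E7.6 ranged over -0.40 to 0.075, positive without wild-type replicate 1. A ribosomal RNA gene, rrn-1.1 at I, 15069280 to 15071033, ranged over -0.32 (without adr-2(-) replicate 1) to 0.57, and gave -0.036 without wild-type replicate 3. The other named-gene fits kept their direction (2122 also kept their side of the threshold, 80 passed it). Of list medians, 470 fits moved by less than the spread between replicates and 16 by more.

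Depth was low in single libraries for some named genes, such as cav-1, with 3.28 normalized reads in wild-type replicate 3. The median SD between replicates was 0.51 on the log2 scale in adr-2(-) and 0.22 in wild type, and its part in the counts was not tested.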

Other observations

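Genes outside the lists above were also among those called higher in adr-2(-) in the authors' deposited table; they are named here after their values were seen. Several encode DNA replication proteins: orc-1 (1.39), which binds replication origins, rfc-3 (1.48), a clamp loader subunit, psf-3 (1.69), a subunit of the GINS complex, div-1 (1.23), a subunit of DNA polymerase alpha-primase, and lig-1 (1.4), a DNA ligase, all as limma log2 fold changes of adr-2(-) over wild type. The kinesin genes klp-15 (1.58), klp-16 (1.44) and klp-18 (1.28), which act in the acentrosomal spindle of oocyte meiosis, were called as well, and klp-15 and klp-16 are close copies. The maternal Wnt gene mom-2 (2.03), the nanos gene nos-1 (1.66) and the cyclin D gene cyd-1 (1.76) belong to the same set. So do the innexin genes inx-2 (2.35) and inx-3 (1.85) and the glutamine synthetase genes gln-5 (2.25) and gln-6 (2.14).

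Several transcription factor genes were also called higher in the authors' deposited table, picked here by name and with no list of all such genes to set them against. They were the homeobox genes ceh-21 (1.68), ceh-39 (1.94), ceh-49 (2.85), ceh-58 (1.53), ceh-83 (2.7), the forkhead gene fkh-3 (2.63), the T-box gene tbx-9 (2.35) and the nuclear receptor gene nhr-2 (2.08). ceh-83, for example, had 105, 185 and 236 normalized reads in adr-2(-) and 30.2, 42.3 and 11.5 in wild type. Of the 257 genes, 36 (14%) belong to the oocyte, eggshell or maternal lists, which hold 0.367% of all genes tested. Those lists were chosen with earlier results of these data known, so this contrast is a description and not a test. These values describe the deposited calls and were not tested further.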
